A study of Mus musculus with 12 samples.

Results

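Solute carriers are membrane proteins that move nutrients, ions, metals and metabolites across the plasma membrane and the membranes of mitochondria, lysosomes, endosomes and the Golgi, and their gene symbols give a family number that groups them by sequence and, roughly, by cargo. The set described here holds 185 mouse solute carrier genes measured in bone marrow-derived macrophages. A gene entered when it was protein-coding, carried a symbol that starts with Slc and a number, and had a mean of at least 1 CPM (read counts scaled to the same total in every library) over the 12 libraries. Of the 54532 genes in the count table, 371 were protein-coding with such a symbol, and 192 of them reached the minimum. Slc7a11, Slc2a1, Slc7a2, Slc16a1, Slc16a3, Slc48a1 and Slc40a1 were left out by name, which gave 185 genes of 43 families. Just inside the minimum lay Slc18a1 at 1.00 and Slc25a27 at 1.02 CPM, and just outside it Slc35d3 at 0.987 and Slc6a19 at 0.868 CPM. All 185 passed the filter on low counts, so every member was tested.

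The macrophages were grown from the femoral marrow of male mice 8 weeks of age, in medium with M-CSF (50 ng/mL), the cytokine under which marrow precursors turn into macrophages. The labels name 2 genotypes, Itga9-Lyz2-cHet and Itga9-Lyz2-cKO, here cHet and cKO. Lyz2 in such names stands for a Cre recombinase driven from the Lyz2 locus, which is active in myeloid cells, so cHet cells are not wild type, but the alleles themselves are not spelled out in the labels. Cells of each genotype were untreated (control) or exposed for 2 hours to the agent labelled Pg at a multiplicity of infection of 1:20, and each of the 4 groups held 3 libraries. The study's title concerns integrin alpha9beta1, of which Itga9 encodes the alpha chain, in macrophages and periodontal inflammation. Whether libraries of the same group stem from different mice or cultures is not stated, so a p-value here reflects library-to-library spread that could be technical.

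In a macrophage, solute carriers set how much iron, zinc and other metal reaches a phagosome, how much arginine and glutamine reaches the cytosol, and which substrates mitochondria take in. Some are known to change with inflammatory stimuli: macrophages withhold iron and manganese from microbes in phagosomes, move zinc between compartments and take up amino acids for new protein, nitric oxide and glutathione. Many members sit on internal membranes, and a change in their mRNA says nothing by itself about transport.

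Library totals lay between 14527674 and 16793803 counts, and the members together held 1.44% to 1.52% of the counts of a library. Itga9 was lower in cKO by 1.46 on the log2 scale over both treatments (adjusted p 0.0118), and Lyz2 by 0.97. The defining macrophage markers were all present, and 13 of 13 listed genes were tested. Their summed level was 29670 to 33270 CPM in cHet controls and 31520 to 37480 CPM in cHet with Pg. In cKO it was lower, at 20650 to 23930 CPM in controls and 23460 to 26890 CPM with Pg. Lyz2 is part of these sums, with a mean of 19366 CPM in cHet controls and 9764.5 CPM in cKO controls. In each group 1 library stood apart on the third principal component of all genes: cHet control 1, cHet Pg 1, cKO control 1 and cKO Pg 3. Their scores were 9.42, -15.7, 13.7 and -13.9. Many members named below whose Pg call changes without these libraries, or whose called Pg value then moves by over 1.5 times, are given both ways. This was not done for every member: Slc12a7, for example, gained a call in cHet (0.20 ± 0.07, adjusted p 0.0198). Calls gained in the genotype comparisons are given as counts, with the main examples. In each group the library left out is the farthest from its group's median on that component. This choice narrows the spread within groups. Standard errors and adjusted p without these libraries can therefore come out too small and serve as description only.

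As RPKM, that is CPM divided by the length of the gene model in kilobases, which allows levels of different genes to be compared, the members spanned 0.188 to 190, with a median of 5.38. Only 14 members lay over 50 RPKM, and 32 lay under 1. The highest were Slc11a1 (190.5 RPKM), the phagosomal exporter of iron and manganese also called NRAMP1, Slc15a3 (188 RPKM), a lysosomal histidine and peptide transporter, and Slc6a6 (155 RPKM), the taurine importer. Next came Slc3a2 (115 RPKM), the heavy chain shared by several amino acid exchangers, Slc39a1 (112 RPKM), a zinc importer, and Slc43a2 (108 RPKM), a carrier of large neutral amino acids. Summed by substrate, the 26 amino acid and peptide carriers held 896.7 RPKM, the 24 metal carriers 610.2 RPKM and the 38 mitochondrial carriers 561.8 RPKM. Of the 8 highest members, 7 carry metals, amino acids or peptides, while 11 sugar and polyol carriers summed to 187.8 RPKM and 5 nucleoside and nucleobase carriers to 43.5 RPKM.

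The first question of the design is how Pg changed these genes within 2 hours. In cHet cells 46 members rose and 30 fell, and in cKO cells 46 rose and 22 fell, counting a gene as changed when its adjusted p was under 0.05 in edgeR's quasi-likelihood test across 13800 genes. The shares of members called, 41.1% in cHet and 36.8% in cKO, stood beside 36.1% and 34% of all genes tested, so members changed about as often as other genes. The 3 Pg libraries lay wholly above the 3 controls in 47 members and wholly below in 44 in cHet, and in 59 and 30 in cKO, while such separation was seen in 47.3% and 45.1% of all genes. In direction, 18% of all genes rose and 18% fell in cHet, and 16.9% rose and 17.1% fell in cKO. Most changes were small: 14 members rose and 2 fell by at least 2-fold in cHet, and 10 rose and 3 fell in cKO. The median log2 change over all 185 members was -0.06 in cHet and 0.06 in cKO, beside -0.0068 and -0.0043 over all genes tested.

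Of 8 markers of dendritic cells 2 rose with Pg in cHet and 4 in cKO, beside 18% and 16.9% of all genes. Their sums overlapped, at 48.1 to 127.5 CPM in cHet controls, 74.8 to 155.7 CPM with Pg, and 53.6 to 136 and 67.6 to 137 CPM in cKO. Itgax held most of these sums (62.9 ± 45.4 CPM in cHet controls, SD) and was called in neither genotype (adjusted p 0.397 and 0.738). The markers called lay low, for example Xcr1 at 0.498 CPM in cHet controls and 3.14 CPM with Pg. Of 13 macrophage markers 3 rose in cHet and 4 in cKO, 1 of 12 neutrophil markers rose and 1 fell in cHet, and 1 stromal and 1 lymphoid marker rose in cKO. The part of these cells in the Pg changes of members was not tested.

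The split between rises and falls rests on the scaling of the libraries. TMM scaling, used throughout, sets the typical gene to no change. With scaling by library size alone the median of all genes moved by -0.24 in both genotypes, and the members then gave 30 rises and 83 falls in cHet and 29 and 61 in cKO. Over all genes the share of calls that were rises went from 50% to 19.1% in cHet and from 49.7% to 18.7% in cKO. Changes below are relative to the typical gene. Of the members called, 5 changed sign under that scaling in cHet (Slc16a6, Slc20a1, Slc25a20, Slc4a2 and Slc9a8) and 4 in cKO (Slc12a7, Slc25a20, Slc6a6 and Slc7a8), all among the smaller rises. Calls of 16 members were lost in cHet, among them Slc11a1, Slc16a6, Slc20a1, Slc25a20, Slc25a5, Slc28a2, Slc38a2, Slc4a2, Slc7a8, Slc8b1 and Slc9a8, and of 17 in cKO, among them Slc12a7, Slc13a3, Slc16a7, Slc1a5, Slc25a20, Slc38a2, Slc41a2, Slc45a4, Slc6a6, Slc7a8, Slc8b1, Slc9a8 and Slc9a9. Without the 4 libraries that stood apart, 50 members rose and 36 fell in cHet and 59 rose and 22 fell in cKO, and none of the called members changed sign.

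**Figure D1:**
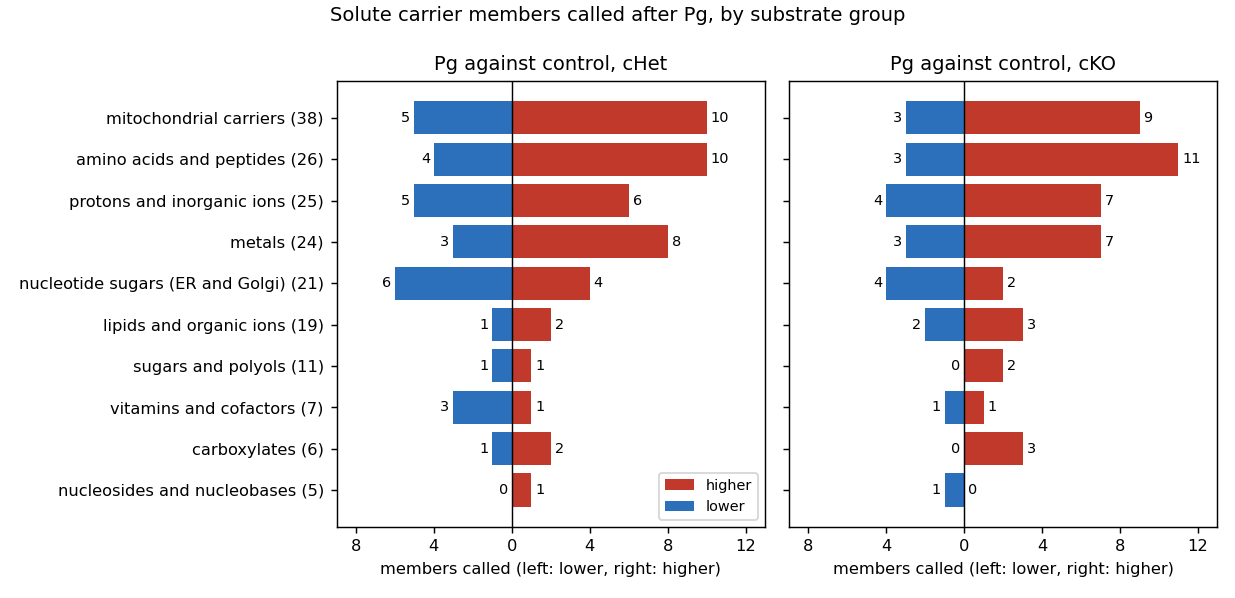
Number of solute carrier members called higher (right, red) or lower (left, blue) after Pg in cHet (left panel) and cKO (right panel), by substrate group, with the number of members in parentheses. Amino acid and peptide carriers have 10 higher and 4 lower in cHet and 11 higher and 3 lower in cKO, while sugar and polyol carriers have at most 2 in either direction.

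The same members responded in both genotypes more often than not. In cHet and cKO alike, 37 rose and 16 fell, 95 were called in neither, and 1, Slc45a4, fell in cHet and rose in cKO. Of the remaining 36 members, called in 1 genotype only, 9 rose and 13 fell in cHet, and 8 rose and 6 fell in cKO. The log2 change had the same sign in 149 of 185 members, and across members the changes in both genotypes, which share no library, had a Pearson r of 0.893 and a Spearman rho of 0.827. Genes are not independent replicates, so these coefficients only describe the set. In a principal component analysis of the members alone, the leading axis took up 58.7% of the variance and placed the 6 control libraries at negative scores and the 6 Pg libraries at positive scores.

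**Figure D2:**
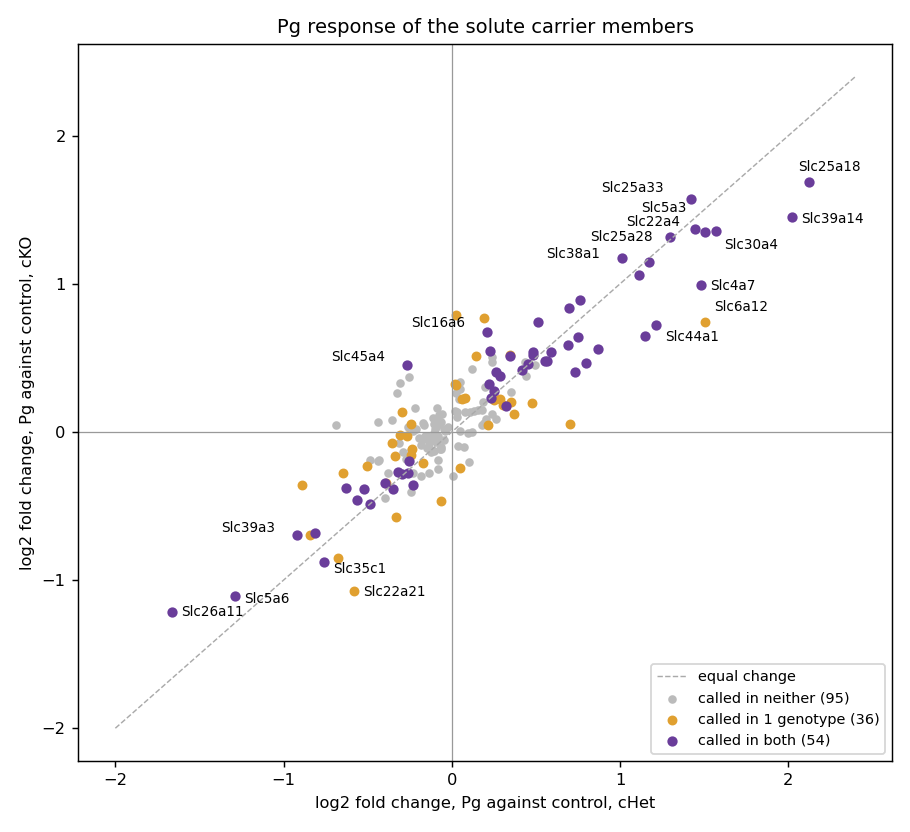
Log2 fold change after Pg of each of the 185 members in cHet (horizontal axis) and cKO (vertical axis). Points are coloured by whether the member was called in both genotypes (54), in 1 (36) or in neither (95), and the dashed line marks equal change. Most called members lie near the line, and Slc45a4 lies in the upper left quadrant.

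Metal carriers were called at 45.8% in cHet and 41.7% in cKO, beside 36.1% and 34% of all genes, a difference that was not tested. They were 2 of the 14 members that rose at least 2-fold in cHet and 2 of the 10 in cKO. Of 24 members, 8 rose and 3 fell in cHet and 7 rose and 3 fell in cKO (6 and 6 in each genotype when scaled by library size alone), with median log2 changes of 0.17 in both. Slc39a14 (chromosome 14, 70303469 to 70351425, minus strand, mm10), a plasma membrane importer of zinc, manganese and iron that is not bound to transferrin, read 23.3, 24.1 and 27.8 CPM in cHet controls and 144, 81.3 and 80.4 CPM with Pg. In cKO it read 24.4, 33.3 and 32.3 CPM in controls and 61.99, 66.7 and 117 CPM with Pg. All 6 Pg libraries lay above all 6 controls, but cHet Pg 1 and cKO Pg 3, which stand apart across all genes, held the highest values. The log2 change was 2.02 ± 0.32 in cHet (standard error; adjusted p 0.00116) and 1.45 ± 0.32 in cKO (adjusted p 0.00703), and without the 4 libraries apart 1.64 ± 0.08 and 0.98 ± 0.08.

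Slc30a4 (chromosome 2, 122681233 to 122702663, minus strand), which loads zinc into vesicles, followed the same pattern, at 10.2, 13.5 and 14.8 CPM in cHet controls and 48.3, 32.8 and 32.9 CPM with Pg. In cKO the libraries held 10.7, 16.4 and 14.5 CPM and 28.9, 29.7 and 47.9 CPM. The highest value of each Pg group again came from cHet Pg 1 and cKO Pg 3, and every Pg library exceeded every control. Slc30a4 rose by 1.57 ± 0.26 in cHet and 1.36 ± 0.26 in cKO, and without the 4 libraries apart by 1.21 ± 0.11 and 0.93 ± 0.11. Among the 46 members that rose in cHet, 30 had their highest Pg value in cHet Pg 1, and among the 46 that rose in cKO, 25 had it in cKO Pg 3; what sets these libraries apart was not tested.

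Both members of family 11, which couple divalent metals to protons, rose. Slc11a1 (chromosome 1, 74375195 to 74386062, plus strand), the macrophage resistance gene whose product clears iron and manganese from phagosomes, went from 699, 586 and 592 CPM to 768, 807 and 812 CPM in cHet. In cKO it went from 648, 549 and 533 CPM to 853, 831 and 789 CPM. No control library reached a Pg library, although the change was small, 0.35 ± 0.08 (adjusted p 0.00269) and 0.52 ± 0.08 (adjusted p 8.67e-05). Scaled by library size alone, the cHet change was 0.10 and lost its call. Slc11a2, the divalent metal importer of endosomes and gut, rose by 0.75 ± 0.07 in cHet and 0.64 ± 0.07 in cKO.

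Zinc importers of family 39 moved in different directions. Slc39a1, the most abundant of the 11 members, rose by 0.48 ± 0.06 and 0.52 ± 0.06, whereas Slc39a3, another plasma membrane importer, fell from 32.9 ± 2.92 to 17.4 ± 1.98 CPM (SD, n = 3 each) in cHet and from 30.96 ± 1.08 to 19.1 ± 2.08 CPM in cKO. The log2 change of Slc39a3 was -0.92 ± 0.10 (adjusted p 2.33e-06) and -0.70 ± 0.10 (adjusted p 4.81e-05). Slc39a9, a Golgi zinc transporter, fell by 0.29 and 0.28 on the log2 scale. Apart from Slc39a14 described above, no other importer of the family was called in both genotypes, and the manganese and zinc importer Slc39a8 (0.05 and 0.29) was called in neither. Of the 3 magnesium carriers of family 41, Slc41a2 rose by 0.80 ± 0.10 and 0.47 ± 0.10, Slc41a1 rose in cKO only as called (0.19 in cHet, 0.77 ± 0.14 in cKO), and Slc41a3 was called in neither. The copper carrier Slc31a2 fell in cKO (-0.24 ± 0.06) and was not called in cHet (0.05 ± 0.06).

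A separate list of 11 genes, all tested, holds genes of metal handling other than transporters and also Hif1a, the hypoxia factor, whose product is marked for degradation by iron-dependent enzymes. Of these 5 rose and 1 fell in each genotype, beside 36.1% and 34% of all genes called in either direction. Hif1a was among the rises (0.99 and 0.84). The zinc-binding metallothioneins Mt1 and Mt2 rose by 1.55 ± 0.19 and 2.83 ± 0.52 in cHet and by 1.03 ± 0.19 and 2.44 ± 0.52 in cKO. Fth1, the ferritin heavy chain that stores iron, rose by 0.34 and 0.26, and Tfrc, the transferrin receptor, fell by 0.84 and 0.86 on the log2 scale. Mtf1, the zinc-sensing transcription factor, was not called (-0.11 and 0.19).

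Mitochondrial carriers form the largest family, with 38 members that exchange metabolites, nucleotides and ions across the inner membrane. In cHet 10 rose and 5 fell and in cKO 9 rose and 3 fell (6 and 17, and 6 and 14, when scaled by library size alone), and 21 were called in neither. The shares called, 39.5% in cHet and 31.6% in cKO, lay near the 36.1% and 34% of all genes. Both mitoferrins, which bring iron into mitochondria for haem and iron-sulphur clusters, rose. Slc25a28, or mitoferrin-2 (chromosome 19, 43663822 to 43674881, minus strand), read 35.7, 35.01 and 37.2 CPM in cHet controls and 99.8, 79.8 and 85.5 CPM with Pg, and in cKO 33.5, 34.4 and 35.1 CPM and 74.7, 86.1 and 95.5 CPM. The control libraries agreed closely with each other in both genotypes, and none came near a Pg library. Its log2 change was 1.30 ± 0.09 in cHet (adjusted p 8.33e-09) and 1.31 ± 0.09 in cKO (adjusted p 7.18e-09). Slc25a37, or mitoferrin-1, rose from 164 ± 8.30 to 299.8 ± 7.89 CPM (SD, n = 3 each) in cHet, by 0.87 ± 0.06, and from 197 ± 5.23 to 289 ± 20.03 CPM in cKO, by 0.56 ± 0.06.

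Slc25a33 (chromosome 4, 149744036 to 149774277, minus strand), which carries pyrimidine nucleotides into mitochondria, rose from 5.57, 5.47 and 5.73 CPM to 15.1, 15.8 and 14.1 CPM in cHet and from 5.65, 5.55 and 6.25 CPM to 16.9, 19.5 and 15.5 CPM in cKO. Its Pg and control libraries did not overlap, and the log2 changes were 1.42 ± 0.12 (adjusted p 1.05e-07) and 1.57 ± 0.12 (adjusted p 2.83e-08). The steepest rise of all members belonged to Slc25a18, a glutamate carrier, at 2.13 ± 0.36 in cHet and 1.69 ± 0.33 in cKO. It rests on 426 counts over 12 libraries, with 1.34, 0.291 and 0.498 CPM in cHet controls and 2.74, 3.87 and 2.88 CPM with Pg. Slc25a18 also shares 32 exon bases with Atp6v1e1 on the opposite strand, a gene with 32332 counts that itself rose by 0.92 and 0.79, and reads of the overlap cannot be told apart without the strand. Slc25a51, the importer of NAD into mitochondria, rose by 0.48 ± 0.07 and 0.54 ± 0.07.

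Falls among the mitochondrial carriers were fewer. Slc25a38, which supplies glycine for haem synthesis, fell from 9.53 ± 0.994 to 5.41 ± 0.858 CPM (SD, n = 3 each) in cHet, a log2 change of -0.81 ± 0.16, and by 0.68 in cKO. The iron and glycine carriers that serve haem synthesis therefore moved in opposite directions. Slc25a14, related to the uncoupling proteins, fell in cHet (-0.84 ± 0.31), a call lost when any 1 of the 6 cHet libraries was left out, and with the 4 libraries apart left out. Slc25a5, an abundant ADP and ATP exchanger (104 RPKM), gave 0.25 ± 0.09 (adjusted p 0.0303) and 0.21 ± 0.09 (adjusted p 0.0641). It rose without the 4 libraries apart by 0.42 ± 0.06 (adjusted p 2.06e-06) and 0.30 ± 0.06 (adjusted p 0.000212), but scaled by library size alone it changed by 0.01 and -0.03. The phosphate carrier Slc25a3 was called in neither genotype (0.13 and 0.14). Slc25a22, the other main glutamate carrier, fell in cKO by 0.58, a call lost without cKO Pg 3, and changed by -0.29 ± 0.11 without the 4 libraries apart.

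Promoter sequence was examined because members of different families rose together. RefSeq promoters (GRCm38.p6, 250 bases before to 50 after a start) were matched to 142 of the 185 members, 193 windows in all. In these windows 7 short motifs were searched on both strands. TGACNNNGC, the core of the antioxidant response element, was present in 12.39% of all 32851 promoters, 19.69% of those of members, 9 of the 31 promoters (29.03%) of members that rose in both genotypes, and 6.25% of the 16 of members that fell in both. The E-box CACGTG was present in 7.15%, 14.51% and 12.9%. The NF-kB form GGANTTTCC was present in 1.25% of all promoters, 1.55% of those of members and 0 of the 31. The AP-1 form TGANTCA (7.81% of all promoters, 3.23% of the 31), the CRE form TGACGTCA (1.79% and 0%), the metal response core TGCNCNC (51.03% and 58.06%) and the amino acid response form TGATGNAA (3.97% and 0%) were searched too. The antioxidant and CRE forms open with the same letters, TGAC, and differ at a later letter. A match describes the letters in the window and is not evidence that a factor binds there, and the windows of a gene with several starts can overlap. The promoters of 4 members that rose in both genotypes follow as examples, 5′ to 3′ on the gene's strand, with matches other than the metal response core in capitals. The promoters of Slc12a4 and Slc5a3, whose rises were also alike in both genotypes, hold no such match and are not printed. The examples therefore do not show how common the motifs are, for which the shares above stand. Slc25a33 (minus strand, chr4:149774218-149774517) has an antioxidant core and an E-box, and Slc35e4 (minus strand, chr11:3914615-3914914) has an antioxidant core. Slc22a4 (minus strand, chr11:54028055-54028354) has an E-box far upstream, and Slc25a28 (minus strand, chr19:43674832-43675131) has none.
Slc25a33: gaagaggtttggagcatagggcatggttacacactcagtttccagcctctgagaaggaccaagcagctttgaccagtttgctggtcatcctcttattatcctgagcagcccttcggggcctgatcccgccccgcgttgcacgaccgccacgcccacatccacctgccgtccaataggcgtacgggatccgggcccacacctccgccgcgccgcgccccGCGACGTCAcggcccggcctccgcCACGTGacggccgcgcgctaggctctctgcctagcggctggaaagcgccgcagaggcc
Slc35e4: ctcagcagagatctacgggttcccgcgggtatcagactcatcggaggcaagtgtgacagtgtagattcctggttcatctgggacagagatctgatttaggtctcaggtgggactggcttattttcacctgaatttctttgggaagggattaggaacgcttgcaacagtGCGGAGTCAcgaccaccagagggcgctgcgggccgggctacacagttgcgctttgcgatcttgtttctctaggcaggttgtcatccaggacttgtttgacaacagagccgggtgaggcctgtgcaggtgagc
Slc22a4: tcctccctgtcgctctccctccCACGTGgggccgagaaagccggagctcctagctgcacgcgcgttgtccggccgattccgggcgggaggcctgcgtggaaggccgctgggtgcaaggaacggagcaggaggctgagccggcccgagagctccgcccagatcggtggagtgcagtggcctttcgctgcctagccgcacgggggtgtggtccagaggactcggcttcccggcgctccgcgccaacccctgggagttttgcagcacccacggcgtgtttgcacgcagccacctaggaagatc
Slc25a28: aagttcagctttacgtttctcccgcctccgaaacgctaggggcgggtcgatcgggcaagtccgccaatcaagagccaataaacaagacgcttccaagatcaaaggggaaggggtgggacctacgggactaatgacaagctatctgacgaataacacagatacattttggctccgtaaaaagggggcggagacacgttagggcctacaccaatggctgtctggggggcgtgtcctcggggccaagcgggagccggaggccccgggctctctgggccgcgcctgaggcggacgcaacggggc

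Of 26 amino acid and peptide carriers 14 (53.8%) were called in each genotype, beside 36.1% and 34% of all genes, a difference that was not tested, with 10 rises and 4 falls in cHet and 11 and 3 in cKO (8 and 10, and 6 and 8, when scaled by library size alone). The median log2 change was 0.23 in cHet and 0.27 in cKO. Slc38a1 (chromosome 15, 96571418 to 96642913, minus strand), a sodium-coupled glutamine importer, rose evenly, with 98.2, 97.6 and 101 CPM in cHet controls, 200.4, 199 and 199 CPM in cHet with Pg, 107, 94.8 and 87.7 CPM in cKO controls and 218, 216 and 220.1 CPM in cKO with Pg. The Pg libraries of a genotype were nearly equal, and its log2 changes of 1.01 ± 0.07 (adjusted p 3.71e-09) and 1.17 ± 0.07 (adjusted p 5.05e-10) had the smallest p of any member in cKO. Slc38a2, its relative that is known to answer amino acid shortage, rose by 0.27 ± 0.08 and 0.40 ± 0.08, calls lost when scaled by library size alone (0.02 and 0.16).

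Arginine and large neutral amino acids enter through partners of families 7 and 3. Slc7a1 (chromosome 5, 148327410 to 148399904, minus strand), the main importer of arginine and lysine in many cells, rose from 30.03 ± 2.51 to 51.1 ± 1.14 CPM (SD, n = 3 each) in cHet, by 0.76 ± 0.09, and from 25.9 ± 3.54 to 48.1 ± 2.46 CPM in cKO, by 0.89 ± 0.09. Slc3a2 (chromosome 19, 8706882 to 8723369, minus strand), the CD98 heavy chain that brings its light chains to the plasma membrane, read 344, 279 and 273 CPM and 428, 498 and 525 CPM in cHet. In cKO it read 339, 277 and 285 CPM and 587, 557 and 468 CPM. All Pg libraries exceeded all controls, with log2 changes of 0.70 ± 0.12 and 0.84 ± 0.12. Of the light chains measured here, Slc7a8 rose by 0.32 and 0.17, the latter turning negative when scaled by library size alone. Slc7a5 (0.44 and 0.38), Slc7a6 (0.26 and 0.09) and Slc7a7 (-0.08 and -0.03) were called in neither genotype. Slc7a5, the large neutral amino acid exchanger LAT1, passed the threshold without the 4 libraries apart, at 0.98 ± 0.20 in cHet (adjusted p 0.000197) and 0.79 ± 0.20 in cKO (adjusted p 0.00223).

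Other importers rose as well. Slc1a5, a glutamine and neutral amino acid exchanger, rose by 0.55 ± 0.10 and 0.48 ± 0.10, Slc16a10, which lets aromatic amino acids pass, by 0.73 ± 0.06 and 0.41 ± 0.06, and the creatine importer Slc6a8 by 0.69 ± 0.14 and 0.59 ± 0.14. The taurine importer Slc6a6, high in every library (1172 to 1495 CPM), changed by 0.08 ± 0.06 in cHet, not called, and by 0.23 ± 0.06 in cKO, called but at -0.01 when scaled by library size alone. Slc6a12, a betaine carrier at no more than 2.15 CPM in any library, rose in cHet by 1.51 ± 0.48 (adjusted p 0.0208), a call lost without cHet control 3 or cHet Pg 3. In cKO it changed by 0.75 ± 0.45 (adjusted p 0.224), and the difference between genotypes was not called (adjusted p 0.711).

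Slc43a2 (chromosome 11, 75531694 to 75577575, plus strand), a uniporter of branched-chain and aromatic amino acids, was the abundant exception that fell. It read 1192, 1324 and 1363 CPM in cHet controls and 855, 829 and 821 CPM with Pg, and 1180.2, 1275 and 1272 CPM against 989.9, 978 and 896 CPM in cKO. The highest Pg library lay below the lowest control. The changes were -0.63 ± 0.07 (adjusted p 9.19e-07) and -0.38 ± 0.07 (adjusted p 0.000218). The lysosomal histidine and peptide carriers split: Slc15a3 rose from 801 ± 77.7 to 1206 ± 49.1 CPM (SD, n = 3 each) in cHet, by 0.59 ± 0.07, and by 0.54 ± 0.07 in cKO, whereas Slc15a4, which is required for signalling by endosomal Toll-like receptors, fell by 0.52 and 0.38 on the log2 scale. Slc15a3 shares 28.1% of its exon bases with Tmem132a on the opposite strand, which holds 28804 counts against 191670. Tmem132a changed by 0.18 in cHet (adjusted p 0.122) and by 0.43 in cKO (adjusted p 0.000903). The lysosomal amino acid carriers Slc36a1 (-0.09 and -0.07) and Slc38a9 (-0.23 and 0.00), which take part in mTORC1 control, were called in neither genotype. Slc38a9 was called in cHet without the 4 libraries apart (-0.34 ± 0.09, adjusted p 0.00258).

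Lists for amino acid shortage and for lysosomal control of mTORC1 were read beside these carriers. Over all genes, 36.1% were called in cHet and 34% in cKO. Of 12 genes of the amino acid response, 5 rose and 2 fell in cHet and 3 rose in cKO. Atf4, its central transcription factor, rose by 0.42 ± 0.06 and 0.63 ± 0.06. Its target Chac1 rose by 2.07 ± 0.71 and 1.88 ± 0.67, but at very low levels. Its means were 0.21 CPM in cHet controls and 0.92 CPM with Pg, and 0.28 and 1.04 CPM in cKO. Trib3 (0.17 and 0.06), another target, and Ddit3 (-0.22 and -0.26) were not called, and Sesn2 fell in cHet (-0.52 ± 0.16). Of 22 tested genes of the lysosomal and mTORC1 list, 5 rose and 7 fell in cHet and 4 rose and 4 fell in cKO. Sesn1, a leucine-responsive inhibitor of mTORC1, fell by 1.93 and 1.90 on the log2 scale, and Tfeb, the transcription factor of lysosomal genes, by 1.10 and 1.01.

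Carriers of protons and inorganic ions gave 6 rises and 5 falls among 25 in cHet and 7 and 4 in cKO (2 and 11, and 3 and 9, when scaled by library size alone). The share called was 44% in each genotype, beside 36.1% and 34% of all genes, a difference that was not tested. Slc26a11 (chromosome 11, 119355557 to 119381079, plus strand), an anion carrier of the sulphate and chloride family, had the steepest fall of all members. Its libraries read 115, 124 and 127 CPM in cHet controls and 34.8, 37.1 and 43.5 CPM with Pg, and 103, 112 and 105 CPM against 52.3, 46.5 and 38.7 CPM in cKO. Control and Pg libraries were far apart in both genotypes. The level with Pg was 3.16-fold lower in cHet (log2 -1.66 ± 0.10, adjusted p 2.01e-09) and 2.32-fold lower in cKO (log2 -1.22 ± 0.10, adjusted p 7.25e-08). The difference between genotypes was not called with all libraries (0.44 ± 0.14, adjusted p 0.173) and was called without the 4 libraries apart (0.51 ± 0.11, adjusted p 0.00357).

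Slc4a7 (chromosome 14, 14702279 to 14799940, plus strand), which brings bicarbonate in with sodium and is known to buffer the cytosol during phagosome acidification, rose. It read 39.01, 39.8 and 37.7 CPM in cHet controls and 124, 90.7 and 110.1 CPM with Pg, and 51.1, 45.4 and 50.1 CPM against 84.2, 91.8 and 116 CPM in cKO. No Pg library overlapped a control, and the changes were 1.48 ± 0.12 and 0.99 ± 0.12. Slc12a4 (chromosome 8, 105943590 to 105966097, minus strand), a potassium and chloride cotransporter that lets cells shed volume, rose from 78.3, 67.4 and 64.9 CPM to 162, 147 and 147 CPM in cHet and from 64.7, 64.6 and 69.4 CPM to 132, 138 and 143 CPM in cKO. Its libraries separated fully, with changes of 1.11 ± 0.07 (adjusted p 3.89e-09) and 1.06 ± 0.07 (adjusted p 7.09e-09). Slc12a2, which moves sodium, potassium and chloride inward, gave -0.07 in cHet, not called, and -0.46 ± 0.15 in cKO, called but lost without cKO control 2 or cKO Pg 2. Slc8b1, which exchanges sodium and calcium at mitochondria, rose by 0.29 ± 0.06 and 0.38 ± 0.06, calls lost when scaled by library size alone (0.04 and 0.13). Slc4a3, an exchanger of chloride and bicarbonate, fell in cHet (-0.89 ± 0.32), gave -0.58 with the call lost without cHet Pg 2, lost its call too when cHet control 2, cHet control 3 or cHet Pg 1 was left out, and was not called in cKO (-0.36 ± 0.33). The endosomal sodium and proton exchanger Slc9a9 changed by 0.02 ± 0.07 (adjusted p 0.867) in cHet and 0.33 ± 0.07 (adjusted p 0.00237) in cKO.

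**Figure D3:**
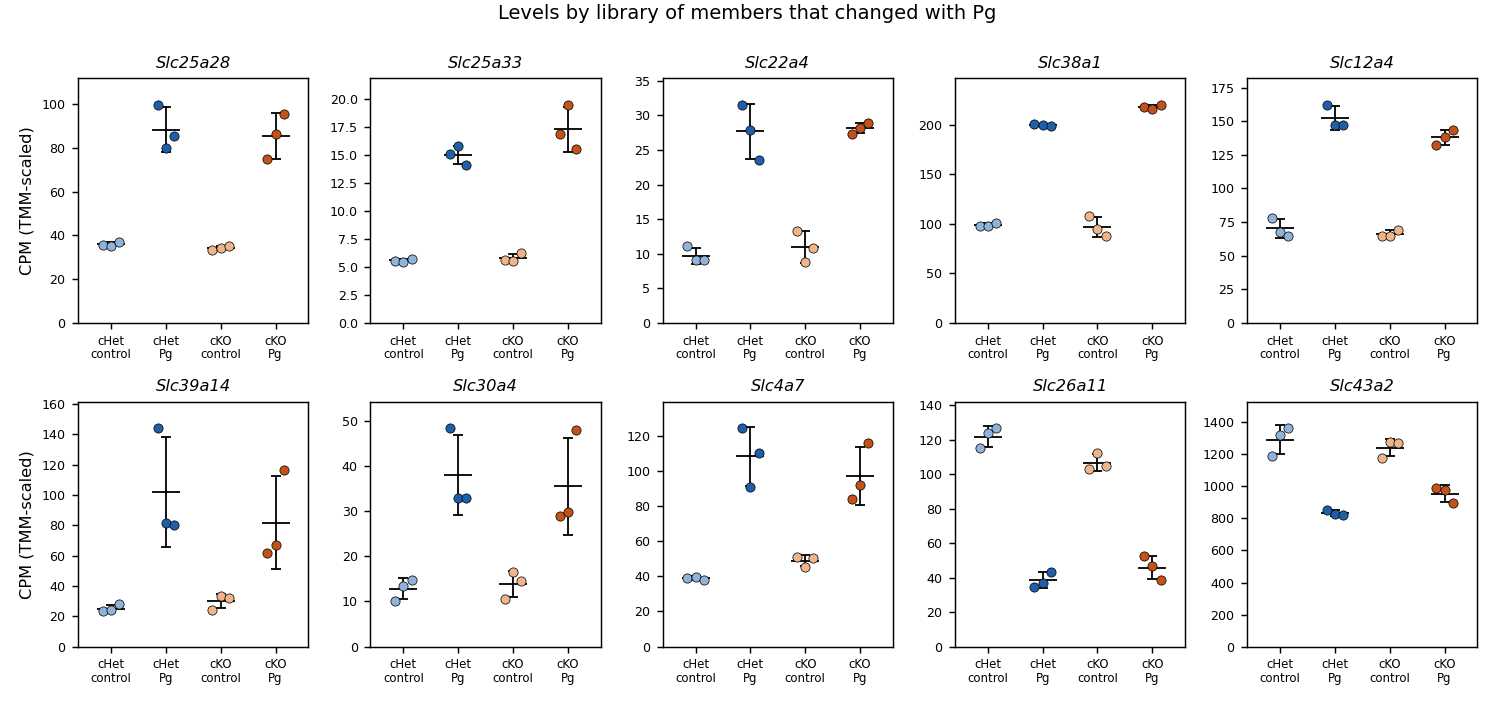
Level in CPM of 10 members in each library, by group, with bars for the mean and SD of 3 libraries. Slc25a28, Slc25a33, Slc22a4, Slc38a1, Slc12a4, Slc39a14, Slc30a4 and Slc4a7 lie higher with Pg and Slc26a11 and Slc43a2 lower, in both genotypes. In Slc39a14 and Slc30a4 a single library of each Pg group lies well above the other two.

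Among 19 carriers of lipids and organic ions, 2 rose and 1 fell in cHet and 3 rose and 2 fell in cKO (2 and 7, and 2 and 4, when scaled by library size alone), and 14 were called in neither. That is 15.8% called in cHet and 26.3% in cKO, beside 36.1% and 34% of all genes, a difference that was not tested. Slc22a4 (chromosome 11, 53983123 to 54028090, minus strand), which imports the antioxidant ergothioneine, rose from 11.1, 9.03 and 9.03 CPM to 31.6, 27.95 and 23.5 CPM in cHet and from 13.3, 8.79 and 10.9 CPM to 27.4, 28.2 and 28.8 CPM in cKO. Every Pg library was above every control, with changes of 1.51 ± 0.14 (adjusted p 2.61e-07) and 1.35 ± 0.14 (adjusted p 8.82e-07). Its neighbours on chromosome 11 are the carnitine carriers Slc22a21 (53949965 to 53980332) and Slc22a5 (53864542 to 53891660). Slc22a21 changed by -0.58 ± 0.29 in cHet (adjusted p 0.135; -0.85 ± 0.31 and adjusted p 0.0278 without the 4 libraries apart) and fell by 1.07 on the log2 scale in cKO, a call lost without cKO control 2. Slc22a5 was called in neither genotype (-0.27 and -0.18), and within this cluster a rise was called for Slc22a4 alone.

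Slc44a1 (chromosome 4, 53440413 to 53622478, plus strand), a choline importer that feeds phosphatidylcholine synthesis, read 72.3, 63.02 and 57.96 CPM in cHet controls and 156, 149 and 143 CPM with Pg. In cKO it read 105, 81.9 and 87.1 CPM and 143, 151 and 158 CPM. Pg libraries of both genotypes reached the same range from different controls. The changes were 1.21 ± 0.09 and 0.73 ± 0.09, and their difference was not called (adjusted p 0.107). The fatty acid carrier Slc27a1 was called in neither genotype (0.24 and 0.12), although cHet Pg 1 (423 CPM) and cKO Pg 3 (445 CPM) were its highest libraries. Slc17a5, the lysosomal exporter of sialic acid, fell by 0.32 and 0.27 on the log2 scale.

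Sugar and polyol carriers were called at 18.2% in each genotype, beside 36.1% and 34% of all genes, a difference that was not tested. Of the 11 members, 1 rose and 1 fell in cHet and 2 rose in cKO (1 and 7, and 1 and 2, when scaled by library size alone). Without the 4 libraries apart, 1 rose and 2 fell in cHet and 3 rose in cKO. With all libraries, none of the 4 hexose carriers of family 2 or the 4 sugar phosphate carriers of family 37 was called in either genotype. Slc2a6 changed by 0.18 ± 0.12 and 0.04 ± 0.12, and the abundant Slc37a2 by -0.11 ± 0.12 and -0.00 ± 0.13. Without the 4 libraries apart, Slc37a2 rose in cKO (0.21 ± 0.05, adjusted p 0.00186) and the urate carrier Slc2a9 fell in cHet (-0.28 ± 0.10, adjusted p 0.0336). The main glucose importer Slc2a1 is outside the set by rule. Slc5a3 (chromosome 16, 92058322 to 92087473, plus strand), which imports the osmolyte myo-inositol, rose from 5.06, 5.42 and 4.48 CPM to 16.2, 11.8 and 12.9 CPM in cHet, by 1.45 ± 0.17, and from 7.44, 5.67 and 4.61 CPM to 13.7, 15.4 and 16.9 CPM in cKO, by 1.37 ± 0.17. Pg and control libraries of Slc5a3 did not overlap. It shares 159 exon bases on its own strand with Mrps6, which rose by 0.71 in cHet (adjusted p 0.0192) and was not called in cKO (0.46, adjusted p 0.122).

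Carboxylates, nucleosides and vitamins had few members each. Of 6 carboxylate carriers 2 rose and 1 fell in cHet and 3 rose in cKO (1 and 2, and 1 and 1, when scaled by library size alone). The share called was 50% in each genotype, beside 36.1% and 34% of all genes. Slc13a3, which takes up succinate and other dicarboxylates, rose by 1.15 ± 0.21 in cHet and 0.65 ± 0.19 in cKO, at levels under 11 CPM in every library. Slc16a7, a pyruvate and lactate carrier, was called in cKO (0.32 ± 0.09) and not in cHet (0.03 ± 0.09). The 5 nucleoside and nucleobase carriers gave 1 rise in cHet and 1 fall in cKO (0 and 2, and 0 and 1, when scaled by library size alone). Their share called was 20% in each genotype. Slc28a2, a concentrating importer of purine nucleosides, read 29.6, 28.3 and 31.9 CPM in cHet controls and 64.9, 44.1 and 37.04 CPM with Pg, and 30.1, 29.2 and 33.9 CPM and 28.2, 29.1 and 39.4 CPM in cKO. The cHet rise of 0.70 ± 0.19 was 0.43 ± 0.10 without the 4 libraries apart and lost its call without cHet control 2, and the cKO change was 0.05 ± 0.19. Slc29a2 fell in cKO (-0.85 ± 0.32), a call lost when any 1 of 5 libraries was left out. The other equilibrative carriers Slc29a1 and Slc29a3 were called in neither genotype. Slc29a1 rose in cKO without the 4 libraries apart (0.31 ± 0.07, adjusted p 0.000855) and the fall of Slc29a2 was not called (adjusted p 0.0908).

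Of 7 vitamin and cofactor carriers, 1 rose and 3 fell in cHet and 1 rose and 1 fell in cKO (1 and 4 in each genotype when scaled by library size alone). The shares called were 57.1% and 28.6%, beside 36.1% and 34% of all genes. Slc23a2, the ascorbate importer of most tissues, rose by 0.42 ± 0.06 and 0.42 ± 0.06, from 279 ± 7.54 to 373 ± 20.8 CPM (SD, n = 3 each) in cHet. Slc5a6, which imports biotin and pantothenate, fell by 1.29 and 1.11 on the log2 scale, with 3.34, 5.36 and 4.54 CPM in cHet controls and 1.69, 1.90 and 1.81 CPM with Pg. Slc5a6 holds 609 counts over all libraries and shares 9.9% of its exon bases with Atraid on the opposite strand, which was called in neither genotype (-0.14 and 0.05). The thiamine carrier Slc19a2 fell in cHet (-0.65 ± 0.20), a call lost without cHet control 2 or cHet Pg 3, and was not called in cKO (-0.28 ± 0.20).

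Nucleotide sugar carriers and their relatives in the endoplasmic reticulum and Golgi gave 4 rises and 6 falls among 21 in cHet and 2 and 4 in cKO (2 and 15, and 2 and 10, when scaled by library size alone). The shares called were 47.6% and 28.6%, beside 36.1% and 34% of all genes, a difference that was not tested. Without the 4 libraries apart the counts were 4 and 6 in cHet and 3 and 2 in cKO, so which direction was the more frequent depends on them in cKO. Slc35c1 (chromosome 2, 92452764 to 92460538, minus strand), the GDP-fucose transporter that supplies fucosylation in the Golgi, fell from 35.5, 34.1 and 40.2 CPM to 22.6, 20.4 and 21.8 CPM in cHet and from 34.2, 43.1 and 42.5 CPM to 22.5, 22.7 and 20.02 CPM in cKO. Control and Pg libraries did not overlap, and the changes were -0.76 ± 0.10 (adjusted p 1.41e-05) and -0.88 ± 0.10 (adjusted p 2.93e-06). Slc35b3, which carries the sulphate donor PAPS, changed by -0.40 and -0.34, both called, and Slc35e2 fell by 0.56 and 0.46 on the log2 scale, the latter not called without the 4 libraries apart (-0.32 ± 0.15, adjusted p 0.101). Slc35b2, the other PAPS carrier, changed by -0.24 ± 0.08 (adjusted p 0.0275) in cHet and 0.06 ± 0.08 (adjusted p 0.643) in cKO. Rises called in both genotypes were those of Slc35e4 (chromosome 11, 3907021 to 3914664, minus strand), a member without an assigned cargo, by 1.17 ± 0.10 and 1.15 ± 0.10, and Slc35f6, a family member of the lysosome, by 0.52 ± 0.07 and 0.74 ± 0.07. Slc35e4 is the member whose promoter is printed above with an antioxidant core.

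Transporters that carry no Slc symbol were read from a list of 31, of which 27 were tested. In cHet 3 rose and 5 fell, and in cKO 7 rose and 2 fell, beside 36.1% and 34% of all genes called in either direction. Slco4a1, an organic anion transporter, rose by 1.51 ± 0.18 and 1.94 ± 0.18, as steeply as the strongest members. Ctns, the lysosomal cystine exporter, fell by 0.32 and 0.23 on the log2 scale. The set also holds 3 genes whose products are not transporters despite the symbol: the scaffold Slc9a3r1 rose by 0.45 and 0.46, Slc4a1ap fell by 0.35 and 0.38 on the log2 scale, with calls that several single libraries decide, and Slc7a6os was not called, though it fell in cKO without the 4 libraries apart (-0.42 ± 0.14, adjusted p 0.0156).

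The next question is whether the genotypes differed. In controls 13 members (7.03%) differed, 7 higher and 6 lower in cKO, beside 5.15% of all genes (2.13% higher and 3.02% lower). With Pg 2 members (1.08%) differed, both higher in cKO, beside 1.85% of all genes (0.652% higher and 1.2% lower). Over both treatments 12 (6.49%) differed, 6 each way, beside 4.91% (2.13% higher and 2.78% lower). In controls the cKO libraries lay wholly above the cHet libraries in 21 members and wholly below in 30, and with Pg in 18 and 11, beside 23.5% and 17.6% of all genes. All called differences were under 2-fold except that of Slc16a9 over both treatments. Leaving out a single control library gave 5 to 11 members in controls, and leaving out the 4 libraries apart gave 25 in controls, 15 with Pg and 20 over both. Without those 4, 10.3%, 5.56% and 8.52% of all genes were called. The control count was 7, 7 and 6 without cHet control 1, 2 and 3, and 7 and 5 without cKO control 2 and 3. Of the 13 calls in controls, 4 held in every setting run, those of Slc16a6, Slc31a2, Slc44a1 and Slc45a4. The other control calls were each lost in some setting.

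Among markers of other cells, those of stromal cells differed with genotype, whereas at most 1 marker of each other list was called in controls. The summed level of 12 stromal markers lay at 32.97 to 35.4 CPM in cHet controls and 2.80 to 3.87 CPM in cKO controls, and at 32.9 to 41.6 and 4.06 to 5.92 CPM with Pg. Of its 8 tested genes 7 were lower in cKO in controls and 7 with Pg, and Lum was at 0 in every library. Neutrophil markers, all 12 detected, summed to 721.9 to 939 CPM in cHet controls and 668 to 832 CPM in cKO controls, with 0 of 12 called. Dendritic cell markers, all 8 tested, summed to 48.1 to 127.5 CPM and 53.6 to 136 CPM, with Batf3 lower in cKO controls (-1.02 ± 0.22). Lymphoid markers summed to 191 to 264.5 and 185 to 229.5 CPM, with Jchain higher in cKO controls (1.87 ± 0.36). Mast cell and basophil markers summed to 16.9 to 22.7 and 13.5 to 17.7 CPM, and erythroid and platelet markers to 219.9 to 354.7 and 284.5 to 410.8 CPM, with none called. The part of these cells in the genotype differences of members was not tested. In such bulk samples fewer cells of a type and less RNA per cell cannot be told apart. Lyz2 and the stromal genes differ between the genotypes as labelled, so the loss of Itga9 alone cannot be told apart from them.

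**Figure D4:**
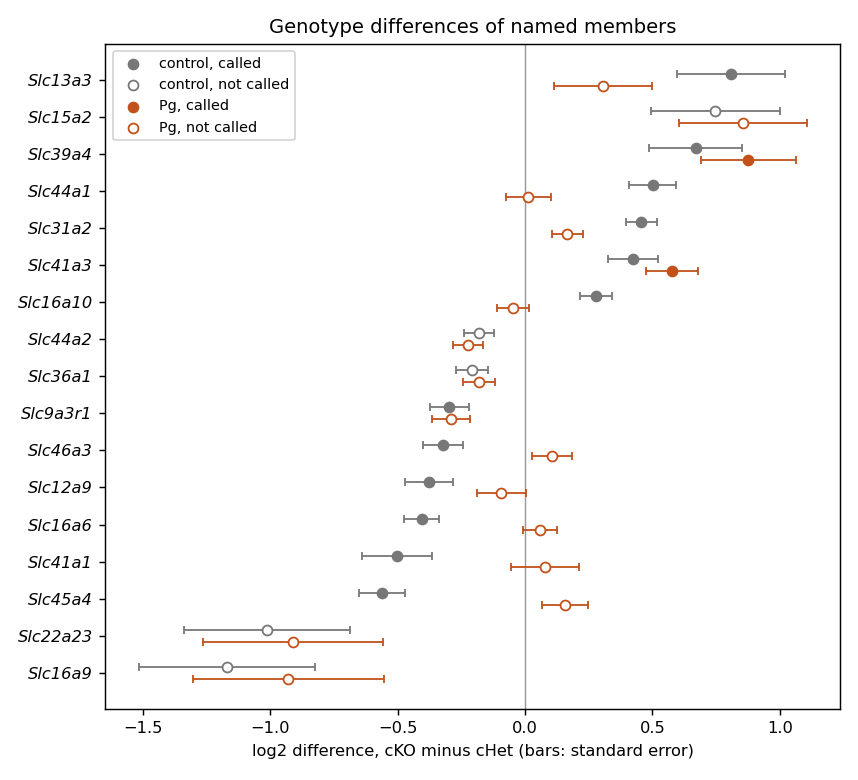
Log2 difference between cKO and cHet of 17 named members called in a genotype comparison or in the interaction, in controls (grey) and with Pg (orange), with bars for the standard error. Filled points passed the threshold. Slc39a4 and Slc41a3 are filled in both, and the 5 members from Slc46a3 to Slc45a4 lie left of 0 in controls and between -0.09 and 0.16 with Pg.

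Metal carriers, 24 of the 185 members, were 3 of the 7 members higher in cKO controls and 1 of the 6 lower. They were also 3 of the 6 higher over both treatments and both of those with Pg. These comparisons share libraries and genes, so they are not separate observations, and the share of metal carriers was not tested. Slc41a3 (chromosome 6, 90604725 to 90646412, plus strand), described as a magnesium carrier of mitochondria, read 13.9, 13.9 and 15.9 CPM in cHet controls and 19.3, 21.1 and 18.04 CPM in cKO controls. With Pg it read 13, 13.9 and 13.7 CPM in cHet and 20.8, 20.1 and 19.7 CPM in cKO. Every cKO library exceeded every cHet library, and the difference was 0.42 ± 0.10 in controls (adjusted p 0.0175), 0.58 ± 0.10 with Pg (adjusted p 0.00319) and 0.50 ± 0.07 over both (adjusted p 0.000194). The control call was lost without cHet control 1, cHet control 2 or cKO control 2, while the calls with Pg and over both treatments held in every setting run.

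Slc39a4 (chromosome 15, 76612383 to 76617384, minus strand), a zinc importer best known from the gut, read 8.51, 11.3 and 11.7 CPM in cHet controls and 12.7, 18.8 and 18.6 CPM in cKO controls. With Pg it read 11.2, 8.94 and 9.04 CPM in cHet and 15.4, 15.9 and 22.3 CPM in cKO. All 6 cKO libraries lay above all 6 cHet libraries. The difference was 0.67 ± 0.18 in controls (adjusted p 0.0472), 0.88 ± 0.19 with Pg (adjusted p 0.0221) and 0.77 ± 0.13 over both (adjusted p 0.00193). The control call was lost when any 1 of 5 control libraries was left out and the Pg call when any 1 of 3 Pg libraries was, and the call over both held in every setting. Neither Slc39a4 nor Slc41a3 was called for Pg, but without the 4 libraries apart Slc39a4 fell in cHet (-0.36 ± 0.14, adjusted p 0.0401).

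The copper carrier Slc31a2 (chromosome 4, 62262562 to 62298411, plus strand) read 194, 177 and 197 CPM in cHet controls and 273, 250.3 and 256 CPM in cKO controls, a difference of 0.46 ± 0.06 (adjusted p 0.000185) that held in every setting. With Pg it read 202, 193 and 192 CPM and 218, 217 and 222 CPM, again without overlap but not called (0.17 ± 0.06, adjusted p 0.244; 0.19 ± 0.06 and adjusted p 0.0491 without the 4 libraries apart). Slc44a1, the choline importer, was higher in cKO controls by 0.50 ± 0.09 (adjusted p 0.00384) and was not called with Pg (0.01 ± 0.09). The peptide importer Slc15a2 was called over both treatments (0.80 ± 0.18, adjusted p 0.0136), with 2.84, 3.90 and 5.17 CPM in cHet controls, 5.06, 6.79 and 8.05 CPM in cKO controls, 6.04, 4.51 and 3.08 CPM in cHet with Pg and 8.07, 7.04 and 9.49 CPM in cKO with Pg. Its control libraries overlapped between genotypes. Slc13a3 (0.81 ± 0.21), Slc16a10 (0.28 ± 0.06) and Slc25a37 (0.26 ± 0.06) were higher in cKO controls. The call of Slc13a3 was lost when any 1 of the 6 control libraries was left out, and those of Slc16a10 and Slc25a37 in some settings.

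Lower members in cKO controls were Slc45a4, Slc41a1, Slc16a6, Slc12a9, Slc46a3 and Slc9a3r1. Only the control calls of Slc45a4 and Slc16a6 held in every setting run. Slc9a3r1 (chromosome 11, 115163341 to 115181181, plus strand), a scaffold under membrane transporters and receptors, differed by -0.30 ± 0.07 in controls (adjusted p 0.0287), -0.29 ± 0.07 with Pg (adjusted p 0.0599) and -0.29 ± 0.05 over both (adjusted p 0.00219). It read 167, 165 and 150.2 CPM in cHet controls and 131, 124 and 137 CPM in cKO controls, without overlap. The lysosomal Slc46a3 and the cation-chloride relative Slc12a9 were lower in cKO controls by 0.32 and 0.38 on the log2 scale and not called with Pg (0.11 and -0.09). Over both treatments the monocarboxylate carrier relative Slc16a9 (-1.05 ± 0.26, adjusted p 0.0224) and Slc22a23 (-0.96 ± 0.24, adjusted p 0.027) were lower in cKO, at levels under 4 CPM, where 4 and 6 single libraries, respectively, decide the call. The abundant Slc44a2 (-0.20 ± 0.04) and Slc36a1 (-0.20 ± 0.04) differed slightly, and the call of Slc36a1 was lost without the 4 libraries apart.

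**Figure D5:**
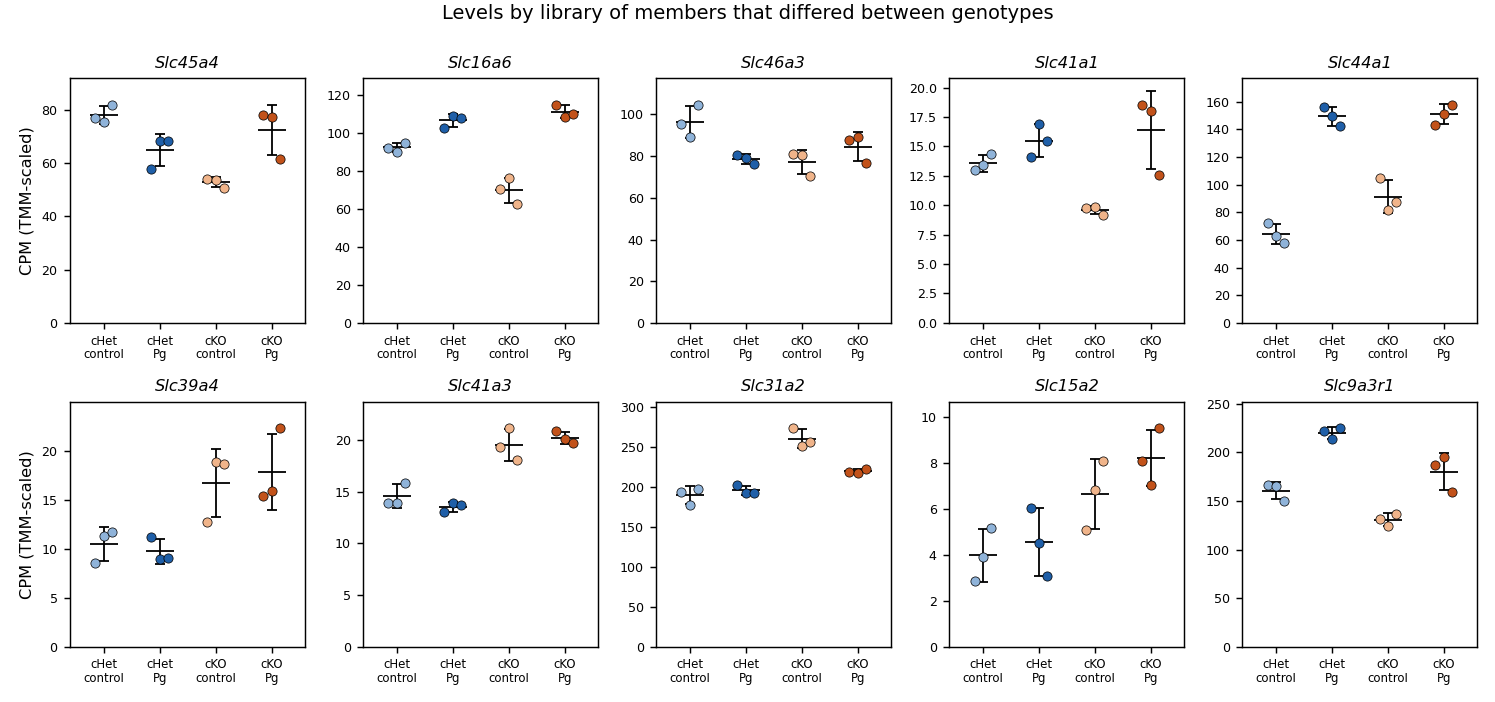
Level in CPM of 10 members in each library, by group, with bars for the mean and SD of 3 libraries. Slc45a4, Slc16a6, Slc46a3 and Slc41a1 are lower in cKO controls than in cHet controls and not with Pg, whereas Slc39a4, Slc41a3 and Slc15a2 are higher in cKO and Slc9a3r1 lower in cKO under both conditions.

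The last question is whether the Pg response itself differed between genotypes. It did so for 2 members (1.08%), both with a larger value in cKO, beside 0.717% of all genes (0.457% higher and 0.261% lower). Slc45a4 (chromosome 15, 73577424 to 73645762, minus strand), of a family described as proton-coupled sugar carriers, read 76.8, 75.4 and 81.99 CPM in cHet controls and 57.98, 68.2 and 68.5 CPM with Pg. In cKO it read 54.2, 53.8 and 50.6 CPM in controls and 78.3, 77.3 and 61.5 CPM with Pg. The cHet libraries fell and the cKO libraries rose, without overlap in either genotype. The Pg change was -0.27 ± 0.09 in cHet (adjusted p 0.0256) and 0.45 ± 0.09 in cKO (adjusted p 0.000767), and the difference 0.72 ± 0.13 (adjusted p 0.0115). That difference held in every setting run, whereas the cHet fall lost its call when cHet control 1, cHet control 3 or cHet Pg 1 was left out, and the cKO rise lost its call when scaled by library size alone. Before Pg, Slc45a4 was lower in cKO (-0.56 ± 0.09, adjusted p 0.000955), and with Pg the genotypes were not called different (0.16 ± 0.09). The interaction is the genotype difference with Pg minus that in controls, so it is tied to both by construction.

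Slc16a6 (chromosome 11, 109450855 to 109473598, minus strand), a monocarboxylate carrier relative known to export ketone bodies in liver, read 92, 90.1 and 94.8 CPM in cHet controls and 102, 109 and 108 CPM with Pg. In cKO it read 70.4, 75.95 and 62.6 CPM and 115, 108 and 109.7 CPM. The cKO controls were the low group, and with Pg both genotypes lay in the same range. The Pg change was 0.21 ± 0.07 in cHet and 0.67 ± 0.07 in cKO, a difference of 0.47 ± 0.10 (adjusted p 0.0316). Leaving out any 1 of 8 libraries lost this call. In cHet the change was -0.04 when scaled by library size alone. Slc16a6 shares 21.5% of its exon bases with Amz2 on the opposite strand, which holds 7093 counts against 17641. Amz2 itself rose with Pg, by 0.52 in cHet (adjusted p 0.000368) and 0.50 in cKO (adjusted p 0.000471). It did not differ between genotypes as called (0.06 in controls and 0.05 with Pg). Reads of the overlap cannot be told apart without the strand, and their part in the Pg changes of Slc16a6 was not tested. Without the 4 libraries apart the difference was 0.47 ± 0.10 (adjusted p 0.00492).

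More members reached the threshold when the 4 libraries apart were left out, 17 (9.19%) beside 6.26% of all genes, 11 with a larger and 6 with a smaller value in cKO. Among those with a smaller value were Slc39a14 (-0.66 ± 0.12, adjusted p 0.000419), Slc44a1 (-0.46 ± 0.09, adjusted p 0.00177), Slc28a2 (-0.56 ± 0.14, adjusted p 0.0147) and Slc4a7 (-0.48 ± 0.12, adjusted p 0.0115), all of which rose more in cHet. Among those with a larger value was Slc43a2 (0.34 ± 0.07, adjusted p 0.00124), which fell less in cKO. With all 12 libraries none of these 5 passed, with adjusted p of 0.678, 0.107, 0.352, 0.233 and 0.239. Without the 4 libraries apart each group holds 2 libraries, and the choice of those left out narrows the spread. The standard errors and adjusted p from that setting can therefore be too small and serve as description only. Of the transporters without an Slc symbol, Slco2b1 differed: it changed by -0.37 ± 0.08 in cHet and 0.30 ± 0.08 in cKO, a difference of 0.67 ± 0.12 (adjusted p 0.0115).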

How the data were processed

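RNA was measured as gene counts in 12 libraries of 4 groups, mapped from the sample titles. The files the authors deposited hold raw, whole-number counts of reads for every gene and a gene length. Per the submitters' processing notes, reads passed fastp and HISAT2 2.0.5, were counted with featureCounts 1.5.0-p3, and refer to mm10. Neither the strand setting nor the annotation release is given in the sources used here. Gene positions are those of the deposited table.

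Counts were scaled by TMM and filtered with filterByExpr, which left 13800 genes. They were fitted with edgeR 4.0.16 in R 4.3.3 as a means model of 4 groups, with robust quasi-likelihood tests of 6 contrasts. P-values were adjusted by Benjamini-Hochberg over all genes tested, with a threshold of 0.05. Standard errors are the log2 change divided by the root of F. CPM values use TMM-scaled library sizes, and RPKM uses the deposited length. The procedure was tested on simulated data. DESeq2 1.42.0, other scalings, no filter, the replicate number as a block and leaving out each library were tried. Leaving out the 4 libraries apart was chosen after seeing the data, and it narrows the spread within groups.

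The members and lists were chosen with earlier results of these data known. Substrate groups follow family numbers, so Slc6a4, a serotonin carrier, sits with the amino acid carriers, and Slc7a6os was moved to the genes that are not transporters after its values were seen. Named were the 10 largest called rises and falls without overlap after Pg, the 6 largest called genotype differences and interactions each way, and in each substrate group the 2 most abundant members and the 3 called with the smallest p. This gave 66 members, and others that the text names were chosen after their values were seen. Promoter sequences are RefSeq's for GRCm38.p6. Exon overlaps were read from a gene annotation of mm10, in which 175 of 185 members had the deposited start and end. Of the members, 44 share exon bases with another counted gene, and 15 with a gene that holds at least 20% as many counts. Results for some members are not reported here.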

Additional observations from a re-analysis of the deposited data

Results flagged for a closer look

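The Pg response of Slc45a4 differed between the genotypes by the interaction test, with a log2 difference (cKO minus cHet) of 0.719 and an adjusted p of 0.0115. All 3 cHet Pg libraries lay below all 3 cHet controls, and all 3 cKO Pg libraries above all 3 cKO controls. The response of Slc16a6 also differed by that test, by 0.465 with an adjusted p of 0.0316. It rose in both genotypes as called and by more in cKO.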

How the results depend on the processing

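With DESeq2 and with no filter on low counts 5 members differed between genotypes with Pg in each case, and 6 in the interaction. Without the 4 libraries apart, 25 members differed between genotypes in controls, 15 with Pg, 20 over both treatments and 17 in the interaction, and in that setting each group holds 2 libraries. Scaled by library size alone, Slc16a6 after Pg in cHet changed by -0.037 and Slc6a6 in cKO by -0.012. Leaving out a single library gave 59 to 72 members for Pg in cHet, 58 to 69 for Pg in cKO, 5 to 11 for genotype in controls, 1 to 3 for genotype with Pg, 7 to 14 for genotype over both and 1 to 8 for the interaction. Genotype over both fell to 7 without cKO Pg 2. Genotype with Pg fell to 1 without cHet Pg 2, cHet Pg 3 or cKO Pg 3. The interaction reached 8 without cKO Pg 3.

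The labels give every group the numbers 1 to 3. Correlations of same-numbered libraries ranged from -0.254 to 0.319 over the 4 pairs of groups that share a genotype or a treatment. Between cKO control and cKO Pg, 4 of 6 libraries correlated best with their own number, and between cHet control and cHet Pg 0 of 6. With 3 libraries a group, such correlations cannot decide whether the numbers pair the libraries. With the number as a replicate block the counts were 73, 67, 13, 2 and 11 for the comparisons in the order above and 1 for the interaction. The member lost was Slc16a6 (adjusted p 0.0647).

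Of 116 calls of named members, 115 held with RLE scaling, 114 with DESeq2, 114 with no filter, 110 with the block, 104 with library size alone and 112 without the 4 libraries apart. With library size alone 2 changed sign. Leaving out single libraries gave 780 checks of these calls, of which 651 held and 129 lost the call. In every setting 32 of 43 calls held for Pg in cHet and 31 of 44 for Pg in cKO. For genotype 4 of 13 held in controls, 1 of 2 with Pg and 6 of 12 over both, and for the interaction 1 of 2. The cause of these differences was not tested.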
